A study of Mus musculus with 2 samples.

Results

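The miR-99/100 and miR-125 families are 6 microRNA genes that lie, together with copies of let-7, in 3 paralogous clusters of the mouse genome. Mir99a, Mir99b and Mir100 form the first family, and Mir125a, Mir125b-1 and Mir125b-2 the second. The rule goes by gene name, and all 6 genes have a row among the 1973 microRNA gene rows of the tables. They were measured by microRNA sequencing in kidneys of B6NCrl mouse embryos at embryonic day 16.5, when nephrons are still forming. There is 1 group of 2 libraries, biological replicates 2 and 1 per the labels, each from kidneys of healthy embryos of both sexes. Kidneys of 41 embryos were pooled for replicate 2, and no number of embryos is given for replicate 1. The labels give both libraries the same donor record, so SDs and p-values measure how far these libraries lie apart, which may in part be technical. No condition is compared with another.

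MicroRNAs are cut from hairpin precursors and guide silencing complexes to messenger RNAs, mainly through the seed, bases 2 to 8 of the mature strand. miR-100, let-7 and miR-125 have been kept side by side over much of animal evolution, and miR-125 is related to lin-4 of Caenorhabditis elegans, which times larval development there. Known targets of miR-99/100 include Mtor, the growth kinase, and miR-125 and let-7 both repress Lin28, which in turn blocks let-7 processing. In the mouse, Lin28 and let-7 influence how long nephrons are formed.

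The mature sequences, from RefSeq on GRCm38.p6, are shown because the seeds define the families and because identity between copies decides what can be counted. They are written 5′ to 3′ with the seed in capitals. All 6 members have a mature entry.
miR-99a-5p (Mir99a): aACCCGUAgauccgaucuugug
miR-99b-5p (Mir99b): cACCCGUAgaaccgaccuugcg
miR-100-5p (Mir100): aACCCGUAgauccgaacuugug
miR-125a-5p (Mir125a): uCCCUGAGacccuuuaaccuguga
miR-125b-5p (Mir125b-1 and Mir125b-2): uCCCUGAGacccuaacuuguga
miR-351-5p (Mir351): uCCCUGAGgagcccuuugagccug
miR-10a-5p (Mir10a): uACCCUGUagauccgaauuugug
let-7e-5p (Mirlet7e): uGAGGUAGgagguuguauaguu

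The miR-99/100 seed ACCCGUA was found in the 3 family genes and in no other of the 1058 genes of that sequence table. miR-99a-5p and miR-100-5p differ by the single substitution U16A, counted from the 5′ end of miR-99a-5p, and miR-99a-5p and miR-99b-5p by A1C, U11A, U16C and U21C. The miR-125 seed CCCUGAG was found in 6 genes, the 3 family members and Mir351, Mir6367 and Mir6394. miR-125a-5p and miR-125b-5p share their first 13 bases and differ by an edit distance of 3. miR-10a-5p of the Hox loci resembles miR-100-5p at an edit distance of 3, with 11 bases in common in a row, but its seed reads ACCCUGU.

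The 22 bases of miR-125b-5p are identical in Mir125b-1 and Mir125b-2. The Mir125b-1 hairpin is shown with the bases that lie in an 18-nt stretch also present in another microRNA gene in capitals, here bases 13 to 36 of 77.
Mir125b-1 hairpin: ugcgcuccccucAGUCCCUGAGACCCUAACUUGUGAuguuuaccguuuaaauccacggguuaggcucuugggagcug
The capitals cover all of miR-125b-5p, and the only other gene with these stretches is Mir125b-2. The 3p arms differ between the copies. The tables put reads that map to several places in a row of their own, which names no gene. It held 3718198 reads (25.3% of the library) in replicate 2 and 3323410 (28.0%) in replicate 1. Reads in the row named ambiguous are left out of these percentages. A read of miR-125b-5p alone fits both copies, so the levels of Mir125b-1 and Mir125b-2 below are those of reads placed in 1 gene, and the level of miR-125b-5p itself is uncertain. Mir99a, Mir99b, Mir100 and Mir125a share no 18-nt stretch with another microRNA gene.

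Gene reads on the strand of the gene numbered 7128703 in replicate 2 and 5317669 in replicate 1, and a level is given as counts per 1000000 of them (CPM) or as a percentage of them. At these depths a count of 0 allows up to 0.421 CPM in replicate 2 and 0.564 CPM in replicate 1. All 14 microRNAs listed as markers of embryonic kidney were detected, with 29.6% of the reads in replicate 2 and 31.5% in replicate 1. Most of that share was from Mir10a and Mir10b of the Hox loci, which together held 20.4% in replicate 2 and 22.8% in replicate 1. The 16 measured microRNAs listed as markers of other tissues held 0.193% ± 0.0108 (SD, n = 2), with 9 of them detected, Mir375 the highest at 702 CPM, and 5 at 0 in both libraries. Those not detected were all numbered gene copies of striated muscle and neuronal microRNAs. Reads of such copies may map to several places and so be in no gene row. Their low counts therefore do not show that these microRNAs were absent. Detection needed only 1 CPM in both libraries, and the lists overlapped in mean level. Of the kidney markers, Mir204 (227 CPM), Mir192 (164 CPM), Mir194-2 (95.2 CPM), Mir30c-2 (71.9 CPM) and Mir196a-1 (50.8 CPM) lay below Mir375. They also lay below Mir223 (367 CPM), Mir206 (277 CPM) and Mir451a (274 CPM) of the other tissues. A difference between genes is set against 1.34-fold, or 0.43 on the log2 scale. That is the 95% normal limit of the replicate SD of 0.22, pooled over the 181 genes whose mean level reached 100 CPM. The SD measures how far the same gene lies apart in the 2 libraries. An error that repeats in both libraries, such as unequal capture of different sequences, is not part of it. A fold beyond this spread is therefore a repeatable difference in reads, and was not tested as a difference in abundance. An exact sign-flip test over 2 libraries cannot go below p = 0.5, so no p-value is given for such differences.

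The 6 genes together held 5.24% of the gene reads in replicate 2 (exact 95% interval 5.23 to 5.26) and 5.31% in replicate 1 (5.29 to 5.33). Nearly all of these assigned reads were miR-99/100. That family held 4.88% in replicate 2 (4.87 to 4.90) and 5.00% in replicate 1 (4.98 to 5.02), or 49419 ± 816 CPM (SD, n = 2). The miR-125 family held 0.360% (0.355 to 0.364) and 0.313% (0.308 to 0.317), or 3362 ± 333 CPM. The family sums stood 13.6-fold apart in replicate 2 and 16.0-fold apart in replicate 1, a mean log2 difference of 3.88 ± 0.17 (SD, n = 2) that exceeds the replicate spread. Reads of miR-125b-5p that map to both copies are missing from the lower sum, so this fold is uncertain. With the miR-125b copies left out of the lower sum, leaving Mir125a, which shares no stretch, the log2 difference was 4.16. Leaving genes out of that sum can only raise the fold, so this value does not settle what the missing reads would change.

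In both libraries all 6 genes reached 1 CPM, as did 387 of the 1973 genes (19.6%). None of the 6 had a read on the opposite strand.

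**Figure D1:**
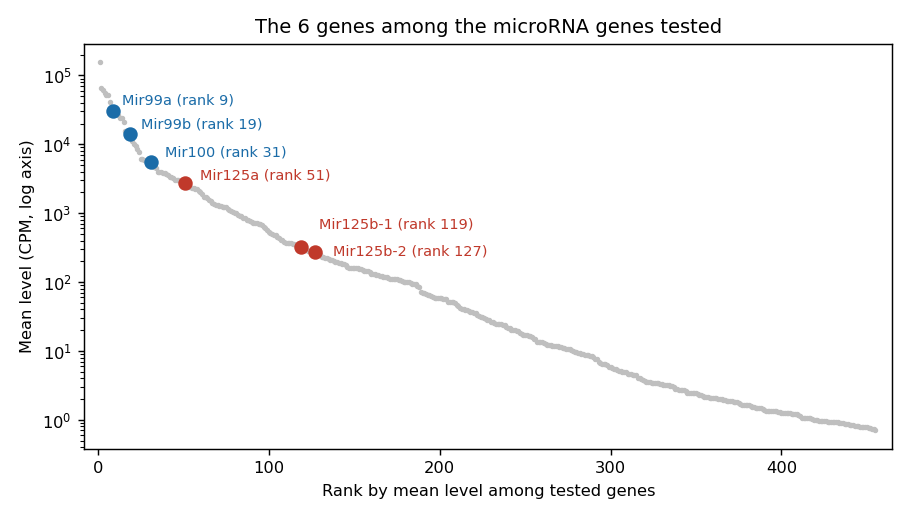
Mean level in CPM (log axis) against rank for the 455 microRNA genes with at least 10 reads summed, with the miR-99/100 genes in blue and the miR-125 genes in red. By assigned reads Mir99a, Mir99b and Mir100 rank 9, 19 and 31, Mir125a ranks 51, and the miR-125b copies rank 119 and 127.

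Mir99a had the most assigned reads of the 6 members. It had 212568 reads (29819 CPM) in replicate 2 and 159898 (30069 CPM) in replicate 1, or 29944 ± 177 CPM. By mean level of assigned reads it ranked 9 of all gene rows. Ranks leave out reads that map to several places or lie opposite to the gene of a row, so they may differ once such reads are placed. Its hairpin lies on chromosome 16 from 77598936 to 77599000 (mm10, + strand), in an intron of the long noncoding host gene Mir99ahg. The log2 ratio of replicate 2 over replicate 1 was -0.16 with the TMM factors used for the comparison of the libraries, and -0.01 on library totals.

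Mir99b, in an intron of the protein-coding gene Spaca6 on chromosome 17 from 17830188 to 17830257 (+ strand), had 98315 reads (13791 CPM) in replicate 2 and 75160 (14134 CPM) in replicate 1. Mir99a stood 2.14-fold above it, 2.16-fold in replicate 2 and 2.13-fold in replicate 1.

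Mir100, on chromosome 9 from 41531425 to 41531504 (+ strand), lies in introns of the noncoding genes 3110039I08Rik and Gm49317 and antisense to an exon of Gm48742. It had 37297 reads (5232 CPM) in replicate 2 and 30805 (5793 CPM) in replicate 1, the lowest level of its family in both libraries. Mir99a stood 5.44-fold and Mir99b 2.54-fold above it. The order Mir99a, Mir99b, Mir100 was the same in both libraries, and each step exceeded the replicate spread. Mir99a gave 61.1% of the family's reads in replicate 2 (exact 95% interval 60.9 to 61.2) and 60.1% in replicate 1 (60.0 to 60.3). Mir99b gave 28.2% and 28.3%, and Mir100 gave 10.7% and 11.6%. Since the 3 genes share a seed, these percentages also give the make-up of the reads with that seed, as far as the reads come from the 5p arms, which the tables do not separate.

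Mir125a had the most assigned reads of the miR-125 family, reads of miR-125b-5p that fit both copies being in no gene row. It overlaps an exon of Spaca6 on chromosome 17 from 17830812 to 17830879 (+ strand), and had 21303 reads (2988 CPM) in replicate 2 and 13533 (2545 CPM) in replicate 1. It gave 83.1% of the family's assigned reads in replicate 2 (82.6 to 83.5) and 81.4% in replicate 1 (80.8 to 82.0). Mir100 stood 2.00-fold above Mir125a, 1.75-fold in replicate 2 and 2.28-fold in replicate 1.

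Mir125b-1, on chromosome 9 from 41581926 to 41582002 (+ strand), had 2449 reads (344 CPM) in replicate 2 and 1633 (307 CPM) in replicate 1. It lies in introns of 3110039I08Rik and Gm49317 and overlaps an exon of the sense intronic RNA gene Gm28119. Mir125b-2, on chromosome 16 from 77646273 to 77646343 (+ strand) in an intron of Mir99ahg, had 1896 reads (266 CPM) in replicate 2 and 1461 (275 CPM) in replicate 1. The copies stood 1.29-fold apart in replicate 2 and 1.12-fold in replicate 1, a mean of 1.20-fold that is within the replicate spread. In the order of the 6 genes by assigned reads, they are the only neighbours that did not differ beyond it. Mir125a stood 8.47-fold above Mir125b-1, a fold that is uncertain because of the shared 5p arm.

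**Figure D2:**
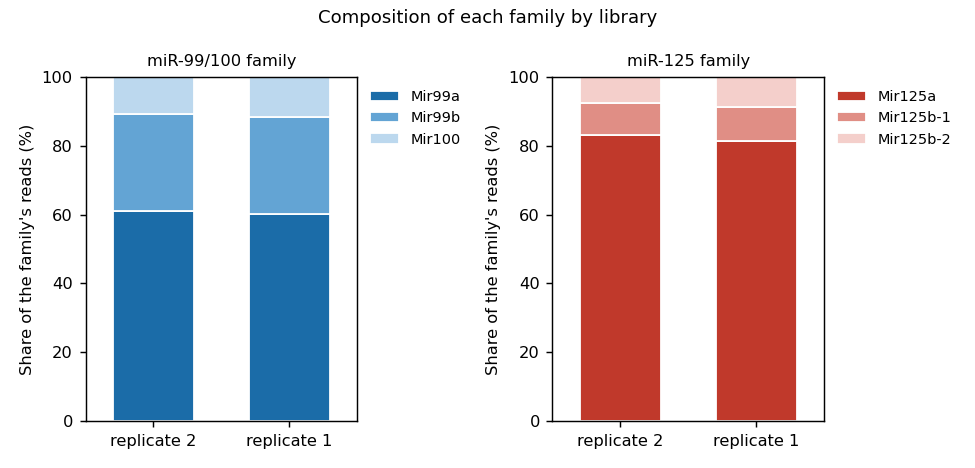
Share of each family's assigned reads, in percent, held by each of its genes, in replicate 2 (left bars) and replicate 1 (right bars). Mir99a holds about 60% of the miR-99/100 reads (61.1% and 60.1%) and Mir125a most of the miR-125 reads (83.1% and 81.4%).

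The 3 clusters keep the same order, a miR-99/100 gene first, a let-7 copy next and a miR-125 gene last, all on the + strand. The Mir99a cluster (Mir99a, Mirlet7c-1, Mir125b-2) spans 47408 bases and the Mir100 cluster (Mir100, Mirlet7a-2, Mir125b-1) 50578 bases, with most of that length before the miR-125 gene. The Mir99b cluster (Mir99b, Mirlet7e, Mir125a) spans 692 bases.

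**Figure D3:**
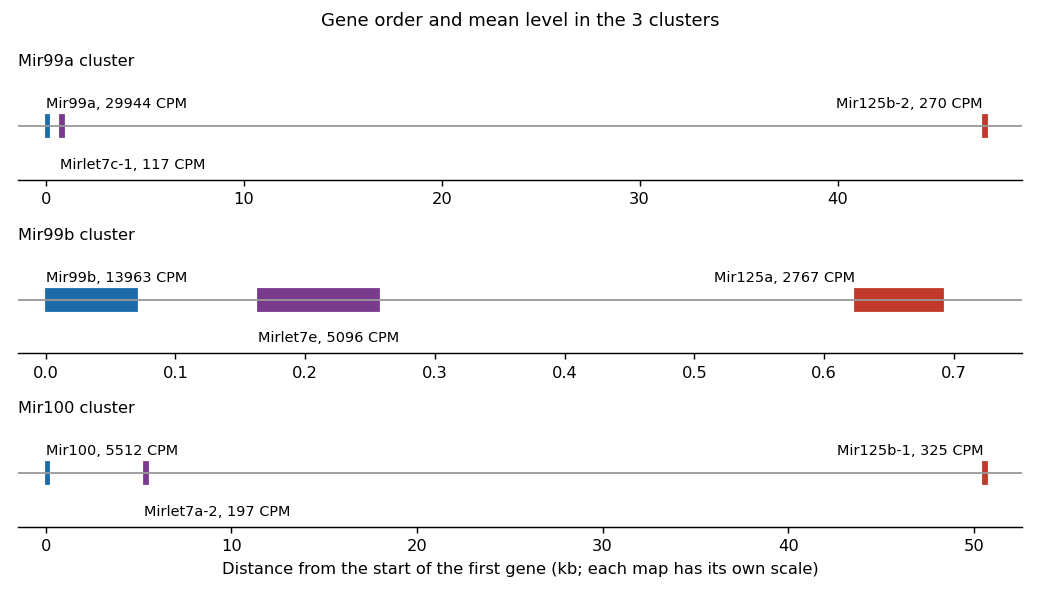
Positions of the 9 genes as distance in kb from the start of the first gene of their cluster, each map with its own scale, with the mean CPM beside each name (miR-99/100 in blue, let-7 in purple, miR-125 in red; bars in the long clusters are widened to be visible). The order is the same in all 3 maps, and the Mir99b cluster is the most compact. The value of Mirlet7e is from reads on its strand in the row of Gm25927.

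Among reads placed in 1 gene, the miR-99/100 gene was the highest of every cluster. The reads that map to several places amounted to 521581 CPM in replicate 2 and 624975 CPM in replicate 1 on the same scale, and which genes they come from is not known, so in the Mir99a and Mir100 clusters the order may differ once they are placed. Mir99a stood 110.4-fold above Mir125b-2 and 257-fold above Mirlet7c-1, the let-7 copy 721 bases from it. Mirlet7c-1 had 960 reads (135 CPM) in replicate 2 and 528 (99.3 CPM) in replicate 1. Mir100 stood 16.9-fold above Mir125b-1 and 28.2-fold above Mirlet7a-2, which had 1623 reads (228 CPM) in replicate 2 and 882 (166 CPM) in replicate 1. In both clusters the let-7 copy had the fewest assigned reads, with a log2 difference to the miR-125b copy of -1.22 ± 0.34 for Mirlet7c-1 and -0.74 ± 0.21 for Mirlet7a-2 (SD, n = 2 each). These 6 folds all exceeded the replicate spread. They all involve a copy with shared stretches, since Mirlet7c-1 and Mirlet7a-2 each share 18-nt stretches with 3 other let-7 genes, so both their sizes and their directions hold for assigned reads alone.

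The Mir99b cluster is the only cluster of the 3 whose genes share no such stretch. Mir99b stood 5.06-fold above Mir125a, 4.61-fold in replicate 2 and 5.55-fold in replicate 1. Mirlet7e, on chromosome 17 from 17830352 to 17830444, has no row of its own. It lies wholly inside Gm25927, a microRNA gene entry annotated on the other strand from 17830343 to 17830459. The row of Gm25927 had 0 reads on its own strand in both libraries, and 38899 reads on the opposite strand in replicate 2 and 25179 in replicate 1. That is the strand of Mirlet7e, and the count amounts to 5457 CPM in replicate 2 and 4735 CPM in replicate 1. The tables do not say which of the 117 bases these reads cover. Taken as the level at the Mirlet7e locus, it lay 2.75-fold below Mir99b and 1.84-fold above Mir125a, both beyond the replicate spread, whereas in the other clusters the let-7 copy had fewer assigned reads than the miR-125 gene. It was 26.0-fold above Mirlet7a-2 and 43.6-fold above Mirlet7c-1, which, unlike Mirlet7e, share stretches and may lack reads.

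**Figure D4:**
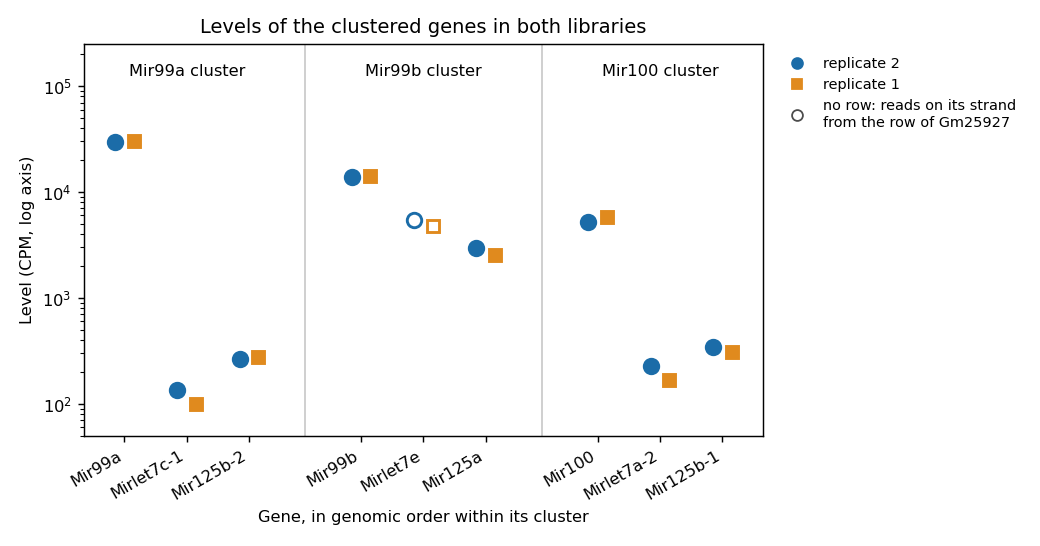
Level in CPM (log axis) of the 9 genes in replicate 2 (circles) and replicate 1 (squares), in genomic order within each cluster. By assigned reads the miR-99/100 gene is the highest of each cluster, the let-7 copy is the lowest in the Mir99a and Mir100 clusters, and open symbols for Mirlet7e show reads on its strand in the row of Gm25927 (5457 and 4735 CPM).

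Summed over the assigned reads of genes with a row, the Mir99a cluster (30331 ± 158 CPM) stood 1.81-fold above the Mir99b cluster (16729 ± 71.3 CPM) and 5.03-fold above the Mir100 cluster (6035 ± 327 CPM). The Mir99b cluster stood 2.77-fold above the Mir100 cluster. All 3 folds exceeded the replicate spread. With the reads at the Mirlet7e locus added, the Mir99b cluster came to 22236 CPM in replicate 2 and 21414 CPM in replicate 1, and the Mir99a cluster stood 1.39-fold above it, just past the spread of 1.34-fold. The order of the clusters follows that of their miR-99/100 genes, which share no stretch with other genes and hold most of each sum of assigned reads.

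Of the let-7 copies of these clusters, Mirlet7c-1 and Mirlet7a-2 together held 0.0362% of the gene reads in replicate 2 and 0.0265% in replicate 1. The reads at the Mirlet7e locus came to 0.546% in replicate 2 and 0.473% in replicate 1 of that total, against 13.9% in both libraries for the 8 measured let-7 genes outside the clusters. The highest of the genes outside the clusters were Mirlet7g (55858 CPM in replicate 2 and 55526 CPM in replicate 1) and Mirlet7i (50261 and 54343 CPM). The multicopy genes Mirlet7a-1 (228 ± 33.5 CPM) and Mirlet7c-2 (142 ± 35.2 CPM), which share stretches with Mirlet7a-2 and Mirlet7c-1, also had far fewer assigned reads than Mirlet7g and Mirlet7i. Of the 8 genes, 6 also share stretches, Mirlet7g and Mirlet7i among them, but to different extents. Shared were 2 of 71 stretches in Mirlet7g and 2 of 68 in Mirlet7i, against 21 of 77 in Mirlet7a-1 and 17 of 78 in Mirlet7c-2.

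Against their closest relatives in sequence, the miR-99/100 genes were lower. The family sum stood below Mir10a by a factor of 3.12 and below Mir10a and Mir10b together by a factor of 4.37. Mir10a, in the Hoxb locus, held 14.5% of the gene reads in replicate 2 and 16.4% in replicate 1.

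By seed, the miR-125 group is wider than its family. Mir351, a gene of the X-linked Mir322 cluster that carries the miR-125 seed, had 47573 reads (6673 CPM) in replicate 2 and 25774 (4847 CPM) in replicate 1. The miR-125 family sum was below Mir351 by a factor of 1.70, which exceeds the replicate spread but rests on a sum that lacks reads of miR-125b-5p. Mir125a was below Mir351 by a factor of 2.06. With Mir351 added, the assigned reads of these genes came to 1.03% in replicate 2 and 0.797% in replicate 1, both arms included and reads of miR-125b-5p that fit both copies left out. Mir6367 and Mir6394 had 0 reads in both libraries. These 3 genes were chosen by their seed after values of Mir351 had been seen.

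The genes ranked next to each member by mean level of assigned reads are given to place the members among the other gene rows. They were picked for their closeness, so no difference is tested. Mir99a stood between Mir143 of smooth muscle (30355 ± 7211 CPM) and Mir26b (28181 ± 604 CPM), and Mir99b between Mirlet7d (15530.0 ± 1642 CPM) and Mir23a (11173 ± 1532 CPM). Mir100 stood between Mir744 (5595 ± 424 CPM) and the epithelial Mir200b (4848 ± 40.8 CPM). Mir125a stood between Mir342 (2802 ± 637 CPM) and Mir196a-2 of the Hox loci (2417 ± 17.2 CPM). Mir125b-1 stood between Mir501 and Mir186, and Mir125b-2 between the erythroid Mir451a and Mir433.

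The libraries were last compared with each other, as log2 ratios of replicate 2 over replicate 1 scaled with edgeR TMM factors, which lowers every ratio by 0.14 relative to library totals. All 6 members had the 10 reads needed for testing. In the exact binomial test with Benjamini-Hochberg adjustment, which takes in counting error only, 5 of the 6 members were called, 4 of them lower and 1 higher in replicate 2. Of all 455 genes tested 33.6% were called, with 17.8% lower and 15.8% higher in replicate 2. Such a test calls smaller ratios in genes with more reads. By mean level the members ranked from 9 to 127 of these genes, so the shares are not matched for level. They do not show that the members differ from other genes at their level. The median ratio was -0.17 over the members and 0.01 over all genes tested. With library totals 78.8% of the called genes were higher, against 47.1% with TMM, and the medians were -0.02 and 0.15. In a bulk sample, fewer cells of a type and less RNA per cell cannot be told apart.

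The 3 miR-99/100 genes were lower in replicate 2, with ratios of -0.16 for Mir99a, -0.18 for Mir99b and -0.29 for Mir100. Their counting errors were 0.005, 0.007 and 0.011. On library totals the ratios kept their sign at -0.01, -0.04 and -0.15. Mir125a was higher, at 0.09 with a counting error of 0.02. Mir125b-2 stood at -0.19 (exact binomial, adjusted p = 0.000719) and Mir125b-1 at 0.02 (adjusted p = 0.813, exact). With library totals the calls of these copies were exchanged, since Mir125b-1 passed at 0.16 and Mir125b-2 did not at -0.05. The reads at the Mirlet7e locus had a ratio of 0.06, which was not tested. Mirlet7c-1 and Mirlet7a-2 stood at 0.30 and 0.31, both called higher (exact binomial, adjusted p = 0.000619 and 9.2e-07), and of the 8 let-7 genes outside the clusters 4 were called higher and 4 lower. Among these, Mirlet7c-2 stood at 0.37 and Mirlet7a-1 at 0.16, and Mirlet7i stood at -0.26 and Mirlet7f-2 at -0.22.

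The median size of the ratio was 0.13 over the 181 genes at 100 CPM or more. The members ranged from 0.02 to 0.29 in size, with Mir99a, Mir99b, Mir100 and Mir125b-2 above that median and all 6 under 0.43. That limit was set for differences between genes and was drawn from these same libraries, members included, so it is no test of these ratios. With the biological coefficient of variation (BCV) set to 0.2, the edgeR exact test called 0 of the 6 members, with 0 at an unadjusted p under 0.05, and 0.659% of all genes tested.

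**Figure D5:**
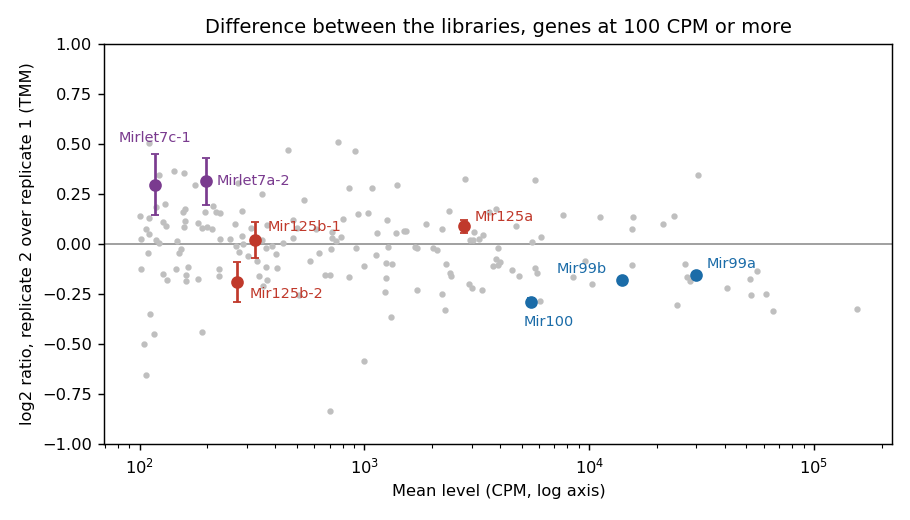
Log2 ratio of replicate 2 over replicate 1 (TMM) against mean level in CPM (log axis) for the 181 genes at 100 CPM or more (grey; 1 gene lies outside the drawn range), with the miR-99/100 genes in blue, the miR-125 genes in red and the let-7 copies of the clusters in purple. Bars are 95% counting intervals. Mir99a, Mir99b and Mir100 lie between -0.16 and -0.29, Mir125a at 0.09, and all members are under 0.43 in size, the limit used for differences between genes.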

How the data were processed

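MicroRNA was sequenced in 2 libraries of embryonic kidney. The authors deposited raw read counts per microRNA gene on assembly mm10 with annotation M4, per the text files beside them. On the aligner, counting program and trimming, nothing is given in the sources used here. From the values, the 3 count columns of a table are reads on both strands summed, on the gene's own strand, and opposite to it. The own-strand column was used. The 4 rows that name no gene stayed out of library sizes and tests. Those for reads unmapped, mapping to several places or in no gene took up 51.5% (replicate 2, of 14706415 reads) and 55.2% (replicate 1, of 11877442 reads). These percentages include reads opposite to a gene. The remaining row, of ambiguous reads, was left out of these totals.

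Symbols, coordinates and overlaps came from GENCODE M21 (GRCm38, the assembly of mm10) by Ensembl identifier, and sequences from RefSeq (GRCm38.p6). Genes were said to share sequence when an 18-nt stretch of the GENCODE precursor occurs in another microRNA gene. Folds between genes are means of differences in log2(CPM + 1). Ratios between libraries used edgeR 4.0.16 TMM factors from genes with at least 10 reads summed, and 0.5 reads added to each count. The exact conditional binomial test (scipy 1.17.1, two-sided, Benjamini-Hochberg threshold 0.05) compares these libraries only, since 1 library a side leaves no degrees of freedom for the quasi-likelihood test. It was tried on data simulated with counting error alone and scaled to library totals. Such data hold no further spread between libraries, so the trial does not cover it. Intervals are exact Clopper-Pearson, and intervals and floors (3 reads) cover counting error only, as reads carry no molecular identifiers. DESeq2 1.42.0 size factors were an alternative. The genes named are the members, all let-7 genes, Mir10a, Mir10b, the genes next in rank and overlapping genes. Added outside this rule were Mir351, Mir6367 and Mir6394 for their seed and Mir375 as the highest marker of another tissue. Further markers of kidney and of other tissues were named to show that the lists overlap in level. Members and lists were chosen with earlier results of these data known. Of the listed let-7 genes, Mirlet7f-1, Mirlet7j and Mirlet7k have no row and were not analysed here, and Mirlet7e, with no row either, is described only through the reads on its strand in the row of Gm25927.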

Additional observations from a re-analysis of the deposited data

Results flagged for a closer look

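A signal appeared in the opposite-strand column, which the gene levels do not use. Reads on the strand of Mirlet7e at its locus, counted in the row of Gm25927, amounted to 5457 CPM in replicate 2 and 4735 CPM in replicate 1, above the 0.421 and 0.564 CPM that a count of 0 allows. Mirlet7b had 25 reads on its opposite strand in replicate 2 and 17 in replicate 1, above the limit of 3 reads.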

How the results depend on the processing

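The folds between families, between clusters and between the measured genes of a cluster kept their direction and their side of the replicate spread under the alternatives run. None of these places the reads that map to several places, and the folds of the Mirlet7e locus over single genes were not recomputed. The fold between families was 13.6 to 16.0 in single libraries, and its log2 value was 2.45 with Mir351 added to the miR-125 sum, a setting chosen after seeing the data. The miR-99/100 level was 48842 and 49996 CPM in single libraries and 48337 CPM with reads on either strand. It was 23030 CPM with all reads of the table but the ambiguous ones in the denominator. With the gene reads without Mir10a as denominator it was 58477 CPM. The miR-125 level was 3598 and 3127 CPM in single libraries, 1572 and 3975 CPM with these 2 denominators, 2767 CPM without the copies that share stretches and 9122 CPM with Mir351. These shifts follow from the altered sums and denominators. The count of members called was 5 with library totals, DESeq2 size factors, no filter on low counts or reads on either strand, and 0 in the edgeR exact test with a BCV of 0.2, whose construction adds spread between pools. Over single libraries the log2 folds were 0.85 to 0.87 (Mir99a over Mir99b cluster), 2.28 to 2.38 (Mir99a over Mir100 cluster) and 1.41 to 1.53 (Mir99b over Mir100 cluster). No paired analysis was possible because the series holds 1 group. Depth does not limit the members, the lowest of which had 1461 reads, but the unassigned reads limit the miR-125b copies.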
